A study of Bos taurus with 10 samples.

Results

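The Notch genes described here are 10 rows of the deposited expression table, taken by name from its first column out of 24596 features: the receptors NOTCH1, NOTCH2 and NOTCH3, the ligands JAG1, JAG2, DLL1 and DLL4, the DNA-binding protein RBPJ, and the target genes HES1 and HEY1. All 10 were present and all 10 passed the filter on low values. They were measured by RNA sequencing in epithelial cells of the oviductal isthmus of heifers (Bos taurus). The cyclic group (5 libraries) was a sham-transfer control, and the pregnant group (5 libraries) had received 50 presumptive zygotes produced in vitro. The labels give no breed, age or day of collection and do not say that each library came from its own animal, so n counts libraries and the tests measure the spread between them. The comparison asked whether embryos in the oviduct altered the RNA of the cells lining it.

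Notch signalling passes between touching cells. A ligand of the Jagged or Delta-like family on one cell binds a Notch receptor on its neighbour, the receptor is cut by an ADAM protease and then by gamma-secretase, and the freed intracellular part enters the nucleus and joins RBPJ to switch on genes of the HES and HEY families, which encode transcriptional repressors. In epithelia that mix secretory and multiciliated cells, as the oviduct does, active Notch is known to favour the secretory fate and to hold back multiciliation.

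The values are RPKM, reads per kilobase of gene, scaled to the reads of the library. Levels of different genes can thus be set side by side only as far as the lengths used match the transcripts present. The recovered lengths of the members ran from 1302 bases for HEY1 to 7605 bases for NOTCH1, and that match was not tested. Library totals recovered from the table were lowest in cyclic library 4, and 1 read in a gene of 1 kilobase was worth 0.103 RPKM there and 0.0383 RPKM in the deepest, pregnant library 5. Cyclic library 3 had a score of 10.5 on principal component 1, which holds 38.1% of the variance, apart from the -55.7 to -10.6 of the other cyclic libraries, and pregnant library 4 stood at -6.47, apart from the 21.6 to 29.3 of the other pregnant libraries. Both libraries of this pair lay toward the other group. Cyclic library 4 stood apart on the far side (-55.7, with cyclic library 5 next at -25.7) and was kept. Group differences are given with and without the pair. All log2 differences between groups are on the log2(RPKM + 1) scale, which understates those of low genes and is not a plain fold change. The secretory epithelium markers (10 genes) summed to 6203 to 12265 RPKM in cyclic and 1920 to 4581 RPKM in pregnant libraries, and the ciliated markers (10 genes) to 835 to 1123 and 778 to 863 RPKM. The ciliated markers went both ways: CCDC39 and ENKUR had higher means in pregnant heifers (log2 differences 0.96 and 0.85), and FOXJ1, DNAI1, DNAI2, DNAH9 and TPPP3 lower ones (-0.83 to -0.43). In whole-cell RNA such as this, fewer cells of a type and less RNA per cell cannot be told apart.

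Among the receptors, NOTCH2 was the most abundant and NOTCH1 the least abundant of the 3 members. NOTCH2 stood at 10.6, 5.52, 7.68, 14.7 and 9.31 RPKM in cyclic libraries 1 to 5 and at 4.72, 5.87, 7.31, 7.94 and 6.58 RPKM in pregnant libraries 1 to 5. All 5 pregnant values lay below the cyclic median, but 4 of them lay within the cyclic range. NOTCH2 averaged 9.57 ± 3.45 RPKM in the cyclic group against 6.48 ± 1.25 RPKM in the pregnant group (SD, n = 5 each), and its log2 difference, pregnant minus cyclic, was -0.45 (SE 0.22). NOTCH3, best known from smooth muscle cells and pericytes of vessels, stood at 6.70, 5.83, 2.70, 4.68 and 7.11 RPKM in cyclic libraries 1 to 5 and at 6.59, 3.42, 3.62, 5.90 and 3.21 RPKM in pregnant libraries 1 to 5. Each group held high and low libraries and the groups covered the same range. NOTCH3 averaged 5.40 ± 1.78 against 4.55 ± 1.57 RPKM (log2 difference -0.20, SE 0.24). NOTCH1 stood at 2.67, 1.52, 0.901, 2.03 and 2.11 RPKM in cyclic libraries 1 to 5 and at 1.19, 0.854, 1.24, 2.52 and 0.725 RPKM in pregnant libraries 1 to 5. Pregnant library 4 was as high as the upper cyclic libraries, and the other 4 pregnant libraries were below the cyclic median. NOTCH1 averaged 1.84 ± 0.666 against 1.31 ± 0.714 RPKM (log2 difference -0.32, SE 0.23).

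JAG1, a ligand, had the smallest p of the 10 genes. It stood at 6.72, 3.64, 5.56, 10.1 and 4.95 RPKM in cyclic libraries 1 to 5 and at 1.96, 3.61, 3.58, 4.30 and 3.24 RPKM in pregnant libraries 1 to 5. Of the pregnant libraries, 4 lay below every cyclic library, and pregnant library 4 lay above cyclic library 2. JAG1 averaged 6.19 ± 2.45 RPKM in the cyclic group against 3.34 ± 0.859 RPKM in the pregnant group, 1.86 times as much in cyclic heifers (log2 difference -0.69, SE 0.23, 95% interval -1.2 to -0.19). JAG2, the other Jagged ligand, stood at 4.79, 5.16, 2.5, 5.20 and 5.42 RPKM in cyclic libraries 1 to 5 and at 4.66, 2.79, 3.67, 3.86 and 3.02 RPKM in pregnant libraries 1 to 5. The 4 cyclic libraries other than library 3 lay above every pregnant library, and cyclic library 3 lay below all of them. JAG2 averaged 4.61 ± 1.2 against 3.6 ± 0.741 RPKM (log2 difference -0.27, SE 0.19).

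Of the Delta-like ligands, DLL4 is known from sprouting endothelium and DLL1 from epithelia and many developing tissues. DLL4 stood at 4.54, 2.89, 1.36, 6.34 and 4.12 RPKM in cyclic libraries 1 to 5 and at 3.03, 1.87, 2.01, 6.32 and 1.10 RPKM in pregnant libraries 1 to 5. The library numbered 4 was the highest in both groups, and the SD was 48.3% of the mean in cyclic and 71.4% in pregnant heifers, the latter the largest of the 10 members in that group. DLL4 averaged 3.85 ± 1.86 against 2.87 ± 2.05 RPKM (log2 difference -0.37, SE 0.36). DLL1 stood at 2.54, 2.82, 2.02, 2.76 and 2.83 RPKM in cyclic libraries 1 to 5 and at 2.17, 2.31, 1.93, 2.87 and 2.02 RPKM in pregnant libraries 1 to 5. These values lay close together, with pregnant library 4 the highest of all 10 libraries. DLL1 averaged 2.59 ± 0.340 against 2.26 ± 0.371 RPKM (log2 difference -0.14, SE 0.13).

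HES1 and HEY1, both targets that RBPJ can switch on, did not follow each other. HES1 stood at 12, 12.5, 24.1, 31.6 and 11.4 RPKM in cyclic libraries 1 to 5 and at 8.33, 11.4, 7.28, 14.6 and 6.72 RPKM in pregnant libraries 1 to 5. Cyclic libraries 3 and 4 were well above the rest of their group, and pregnant libraries 1, 3 and 5 lay below every cyclic library. HES1 averaged 18.3 ± 9.12 RPKM in the cyclic group against 9.66 ± 3.29 RPKM in the pregnant group, 1.9 times as much in cyclic heifers, with the largest log2 difference among the 10 members (-0.79, SE 0.30, 95% interval -1.44 to -0.14). HEY1 stood at 25.4, 29.8, 13.0, 21.6 and 29.9 RPKM in cyclic libraries 1 to 5 and at 28.9, 14.4, 20.3, 24.9 and 15.9 RPKM in pregnant libraries 1 to 5. Both groups ran from about the same low to about the same high, and cyclic library 3, high for HES1, was the lowest of all 10 libraries for HEY1. HEY1 averaged 23.9 ± 7.05 against 20.9 ± 6.10 RPKM (log2 difference -0.18, SE 0.25).

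RBPJ, through which all Notch receptors act, was the member whose mean was higher in pregnant heifers. It stood at 28.9, 22.4, 28.8, 20.5 and 20.1 RPKM in cyclic libraries 1 to 5 and at 24.3, 27.7, 24.5, 23.7 and 29 RPKM in pregnant libraries 1 to 5. All 5 pregnant libraries lay above the cyclic median, and 1 of them lay above the cyclic range. RBPJ averaged 24.1 ± 4.37 against 25.9 ± 2.34 RPKM, and its log2 difference of 0.11 (SE 0.13) had a 95% interval of -0.18 to 0.39.

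**Figure D1:**
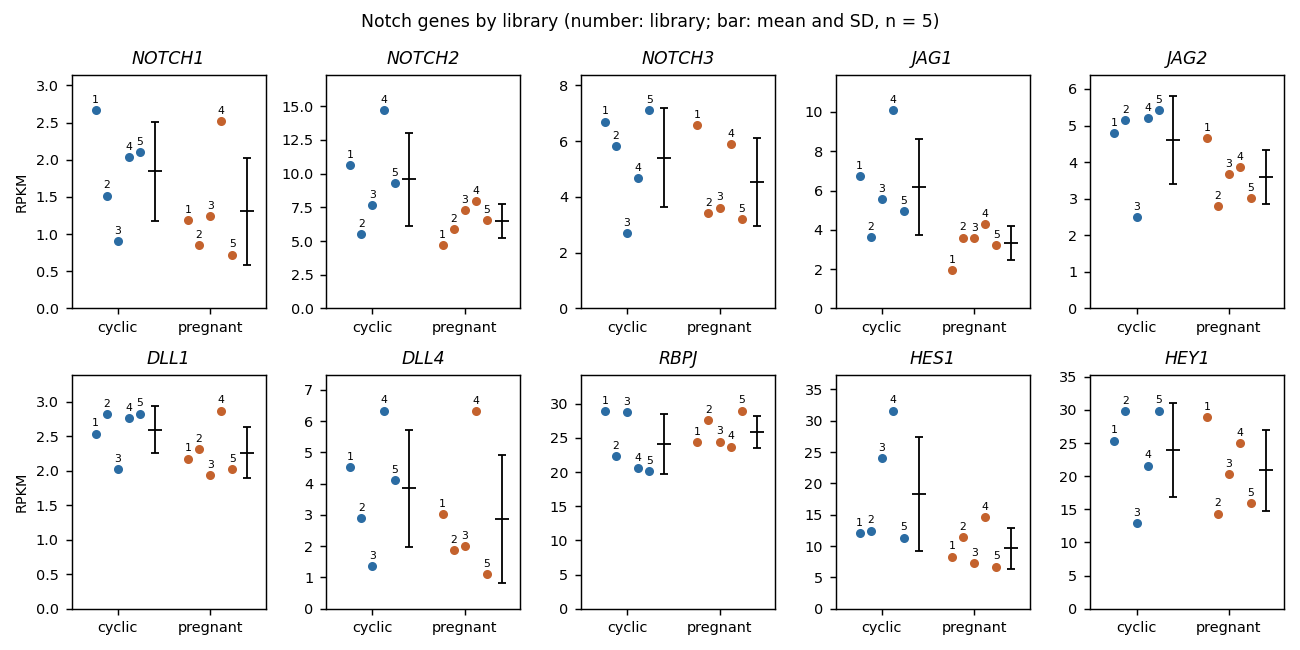
RPKM of each Notch gene in every library (linear axes from 0; each point is a library with its number, and the black bar is the group's mean and SD, n = 5). HES1 reached 24.1 and 31.6 RPKM in cyclic libraries 3 and 4 and at most 14.6 RPKM in pregnant libraries, while HEY1 and NOTCH3 covered the same range in both groups.

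None of the 10 genes passed an adjusted p of 0.05 in the comparison of pregnant with cyclic heifers (limma-trend on log2(RPKM + 1), Benjamini-Hochberg over 12834 tested features, of which 0% were called). Adjusted p was 0.106 for JAG1, 0.128 for HES1, 0.198 for NOTCH2, 0.379 for NOTCH1 and 0.365 for JAG2. For DLL1, DLL4, NOTCH3, RBPJ and HEY1 it was 0.499, 0.519, 0.623, 0.619 and 0.667. JAG1 and HES1 had an unadjusted p under 0.05 (0.0112 and 0.0219, limma-trend), both lower in pregnant heifers, where 11.9% of all tested features met that limit in the lower and 15.7% in the higher direction. Voom on recovered reads called none of the 10 either. By mean log2 difference 9 of 10 members lay lower in the pregnant group (median -0.29), beside 49.1% of all tested features and their median of 0.01.

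No member separated the groups without overlap, where 2.05% of tested features did so in the lower and 4.91% in the higher direction. A single library made the overlap of both Jagged ligands. Without cyclic library 2 or without pregnant library 4, JAG1 was lower in every pregnant library (2.44% and 5.99% of features were then lower without overlap), and without cyclic library 3, JAG2 was (6.96%). With cyclic library 3 and pregnant library 4 both left out, NOTCH1, JAG1, JAG2 and DLL1 were lower without overlap, beside 15.0% of features.

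The calls turned on how much single libraries weighed. Without cyclic library 3 and pregnant library 4, NOTCH1, JAG2 and DLL4 passed as lower (limma-trend, adjusted p = 0.0273, 0.0445 and 0.0303, log2 differences -0.62, -0.46 and -0.87), 3 of 10 beside 13.6% of all features. That pair was picked because it stood apart from its groups, each library toward the other group. Leaving it out therefore tends to widen the differences. With sample array weights, which gave cyclic library 3 the smallest weight (0.313), NOTCH3, JAG2 and HES1 passed as lower (adjusted p = 0.0449, 0.0273 and 0.0368), beside 18.2% of features. With voom and quality weights on recovered reads 6 members passed as lower, NOTCH1, NOTCH3, JAG2, DLL1, HES1 and HEY1 (adjusted p from 0.0192 for JAG2 to 0.0385 for HEY1), beside 19.0% of features. JAG1, with the smallest p when all libraries weighed alike, passed in none of these, and its smallest adjusted p over the alternatives was 0.0538.

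**Figure D2:**
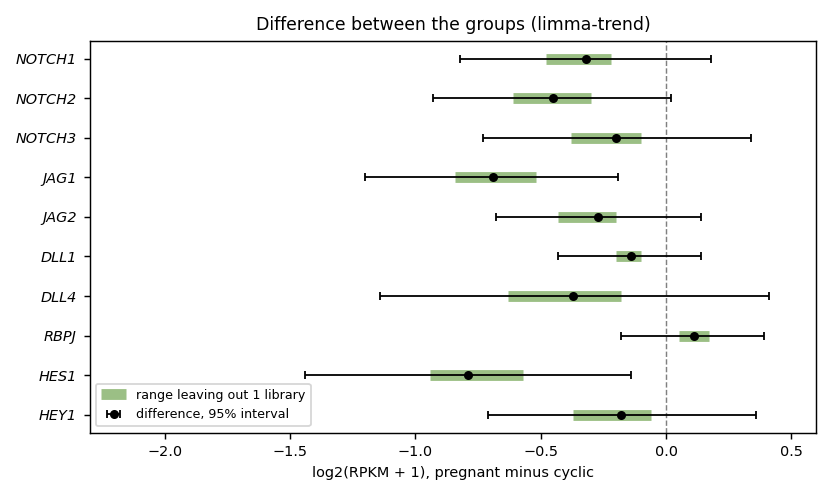
Log2 difference of each Notch gene, pregnant minus cyclic, on the log2(RPKM + 1) scale (points, with the 95% interval from limma-trend as black bars), and the range of the same difference when each of the 10 libraries is left out in turn (green). The intervals of JAG1 (-1.2 to -0.19) and HES1 (-1.44 to -0.14) lie below 0, before adjustment for the number of features tested.

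In all 10 leave-one-out fits each member kept the sign of its difference. HES1 ranged from -0.94 without pregnant library 4 to -0.57 without cyclic library 4, and JAG1 from -0.84 without cyclic library 2 to -0.52 without cyclic library 4. DLL4 was -0.63 when pregnant library 4 was left out and -0.18 when pregnant library 5 was, and HEY1 from -0.37 without cyclic library 3 to -0.06 without pregnant library 2. NOTCH3 ranged from -0.38 to -0.10, NOTCH1 from -0.48 to -0.22, NOTCH2 from -0.61 to -0.30 and JAG2 from -0.43 to -0.20. DLL1 ranged from -0.20 to -0.10 and RBPJ from 0.05 to 0.17. In proportion to their size these ranges were narrowest for JAG1 and HES1 among the 10 genes.

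NOTCH2 made up the largest share of receptor RNA. Of the summed RPKM of NOTCH1 to NOTCH4, NOTCH2 held 54.4 ± 11.2% in cyclic and 50.7 ± 9.62% in pregnant heifers (SD, n = 5 each), and NOTCH3 31.2 ± 9.25% and 34.7 ± 8.89%. NOTCH1 held 10.4 ± 1.97% and 9.59 ± 3.13%. NOTCH4, an endothelial receptor that is not among the 10 members, held 4.03 ± 0.782% and 5.0 ± 0.487%. The sum of the 4 receptors was 17.5 ± 4.59 RPKM in the cyclic group against 13.0 ± 2.52 RPKM in the pregnant group. Shares of the receptors thus differed between the groups by less than the SD within a group, except that of NOTCH4, and none of the shares was tested.

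Among the 4 ligands no gene dominated. JAG1 held 36.0 ± 9.51% of their summed RPKM in cyclic and 28.4 ± 7.67% in pregnant heifers, and JAG2 27.2 ± 6.16% and 30.6 ± 6.56%. DLL4 held 21.2 ± 5.66% and 21.9 ± 9.48%, and DLL1 15.7 ± 3.22% and 19.1 ± 2.44%. The sum was 17.2 ± 4.85 RPKM in the cyclic group against 12.1 ± 3.09 RPKM in the pregnant group, with the highest library at 24.4 RPKM and the lowest at 9.38 RPKM. JAG1 was the ligand of largest share in cyclic heifers and JAG2 in pregnant heifers, by differences smaller than the spread between libraries.

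**Figure D3:**
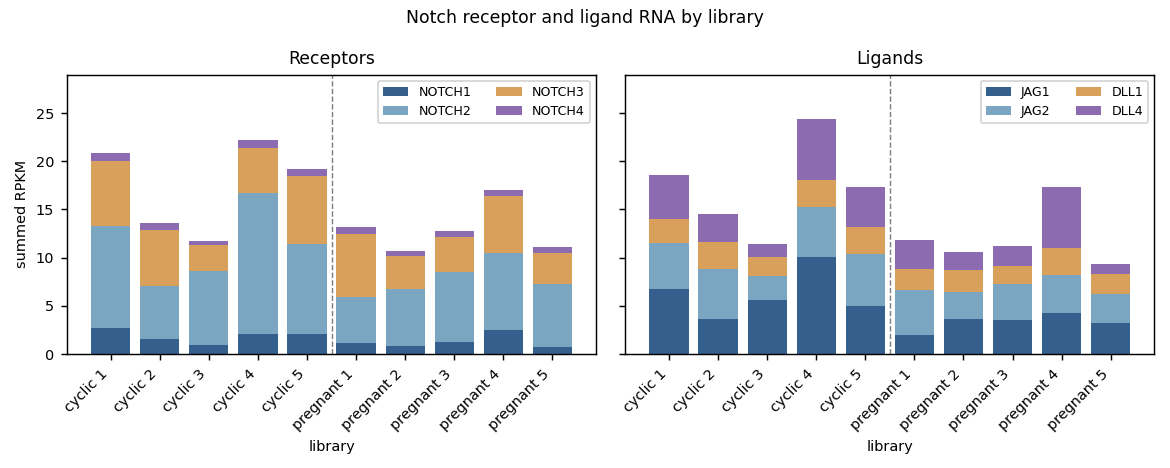
Summed RPKM of the receptors NOTCH1 to NOTCH4 (left) and of the ligands JAG1, JAG2, DLL1 and DLL4 (right) in each library, stacked by gene, with cyclic libraries left of the dashed line. Cyclic library 4 had the highest sums, 22.2 RPKM of receptors and 24.4 RPKM of ligands, and NOTCH2 and NOTCH3 were the bulk of receptor RNA in every library.

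Over all 10 libraries the order of mean levels was RBPJ (25 RPKM), HEY1 (22.4), HES1 (14.0), NOTCH2 (8.03), NOTCH3 (4.98), JAG1 (4.76), JAG2 (4.11), DLL4 (3.36), DLL1 (2.43) and NOTCH1 (1.57). Of the 9 neighbouring pairs in this order 3 differed beyond their spread. Log2 differences between these levels are also on the log2(RPKM + 1) scale, which understates those between low genes. HES1 lay above NOTCH2 in 9 of 10 libraries (mean within-library log2 difference 0.64, SD 0.51), with a two-sided exact permutation p of 0.00391 over all sign assignments and 0.0176 adjusted over the 9 pairs. NOTCH2 lay above NOTCH3 in 8 of 10 libraries (log2 difference 0.59, adjusted exact permutation p = 0.0469). DLL1 lay above NOTCH1 in 9 of 10 libraries (log2 difference 0.45, adjusted exact permutation p = 0.0176). HEY1 lay above HES1 in 8 of 10 libraries, with cyclic libraries 3 and 4 the other way round, and this pair did not pass (log2 difference 0.74, adjusted exact permutation p = 0.0703). RBPJ and HEY1, and the run of NOTCH3, JAG1, JAG2, DLL4 and DLL1, did not differ from their neighbours beyond the spread between libraries (adjusted exact permutation p from 0.102 to 0.703).

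**Figure D4:**
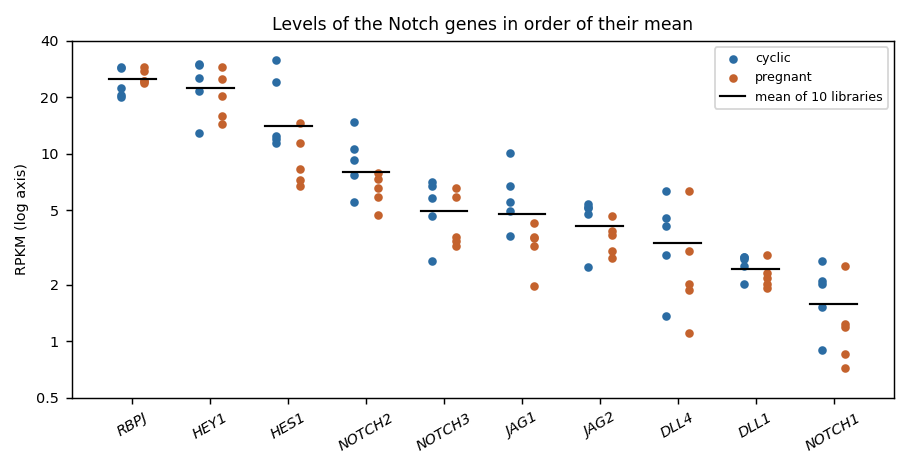
RPKM of the 10 Notch genes on a log axis, in order of the mean over 10 libraries (black line), with cyclic libraries in blue and pregnant libraries in orange. RBPJ, HEY1 and HES1 lie above the receptors and ligands, from a mean of 25 RPKM for RBPJ to 1.57 RPKM for NOTCH1.

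Reads behind these values were recovered from the table. DLL1 rested on the fewest, 62 to 123 reads a library, and NOTCH2 on the most among receptors and ligands, 605 to 1331 reads. JAG1 rested on 199 to 664 reads, HES1 on 182 to 651, NOTCH1 on 126 to 342 and DLL4 on 85 to 368. The exact 95% Poisson interval, which covers counting error only, was 2.12 to 3.54 RPKM for DLL1 in cyclic library 4 (62 reads) and 28.8 to 34.7 RPKM for HES1 in the same library (452 reads). In pregnant library 5 (122 reads) the interval of DLL1 was 1.68 to 2.41 RPKM.

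Across the 10 libraries some members varied together. Of 45 pairs, 4 had both an adjusted Pearson and an adjusted Spearman p under 0.05 (permutation tests with 100000 resamples, two-sided, Benjamini-Hochberg over the pairs). The count was 0 without cyclic library 3 or 5, without pregnant library 2, 3 or 5, and without cyclic library 3 and pregnant library 4 together, and it was 9 without cyclic library 1. These tests were chosen after the values had been seen, and the values of a library share its total. The share of all feature pairs that reach these limits was not counted, and principal component 1 held 38.1% of the variance. Among all tested features, NOTCH2 was only in place 8 of likeness to JAG1, and DLL4 in place 35 of likeness to NOTCH1. NOTCH2 and JAG1 formed one pair (r = 0.94, rho = 0.85, permutation p = 0.00011 and 0.00266, adjusted 0.00247 and 0.0299). Without the libraries farthest from the NOTCH2 median, cyclic 4 and pregnant 1, r was 0.83, and with group means removed it was 0.93.

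The other 3 pairs joined different genes. HEY1 and NOTCH3 had r = 0.95 and rho = 0.90 (permutation p = 5e-05 and 0.00091, adjusted 0.00225 and 0.0299), with r = 0.92 without cyclic library 3 and pregnant library 2. HEY1 and JAG2 had r = 0.92 and rho = 0.87 (permutation p = 0.00061 and 0.00246, adjusted 0.00686 and 0.0299), with r = 0.80 without the same libraries. DLL4 and NOTCH1 had r = 0.92 and rho = 0.87 (permutation p = 0.00043 and 0.00234, adjusted 0.00645 and 0.0299), with r = 0.93 without cyclic library 4 and pregnant library 5. With group means removed these 3 values of r were 0.94, 0.94 and 0.92. Each group has only 5 libraries, too few for a correlation within a group.

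HES1 was closest to JAG1 among the members (r = 0.79, rho = 0.79, permutation p = 0.00697 and 0.00921, adjusted 0.0448 and 0.0656). In the leave-one-out calculations this r ran from 0.61 without cyclic library 4 to 0.85 without cyclic library 1. Without both cyclic libraries 3 and 4, the farthest from the HES1 median, r was 0.54. Leaving out the extreme libraries of a gene narrows its range, which can lower r. HES1 was then closer to DLL1 (0.91), DLL4 (0.78), NOTCH1 (0.71) and NOTCH3 (0.56), and these values were not tested. HES1 and HEY1 had r = -0.16 and rho = -0.07 (permutation p = 0.669 and 0.867, adjusted 0.772 and 0.929). RBPJ ran against the other 9 members in sign, from r = -0.21 with JAG1 to r = -0.75 with JAG2, and no adjusted permutation p of RBPJ was under 0.05 (0.0705 for JAG2).

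**Figure D5:**
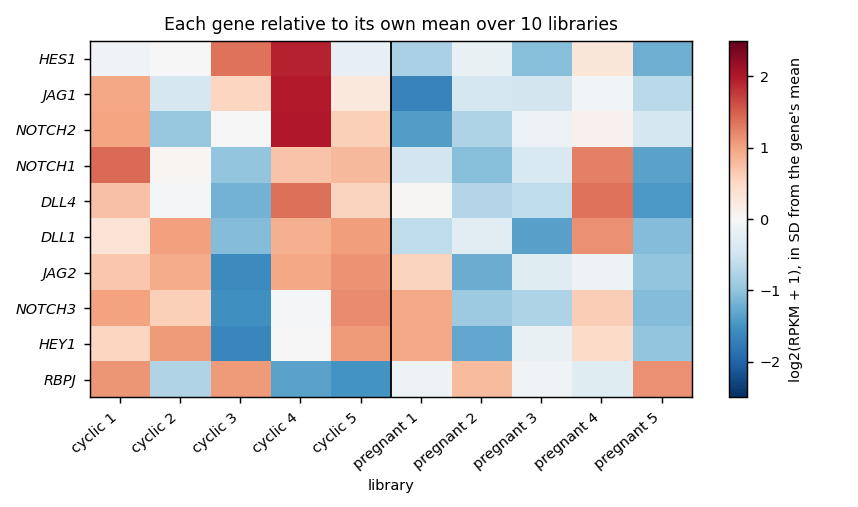
Level of each Notch gene in each library relative to the gene's own mean over 10 libraries, in SD of log2(RPKM + 1) (red above, blue below; cyclic libraries left of the line). HES1, JAG1 and NOTCH2 are highest in cyclic library 4, while JAG2, NOTCH3 and HEY1 are lowest in cyclic library 3 and RBPJ is high there at 28.8 RPKM.

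Features whose profile over the 10 libraries was most like a member's were found from the root mean square difference of scaled log2(RPKM + 1) values, in SD units, among all tested features. For HES1 they were SSR2 (0.20), ENSBTAG00000032432 (0.29) and C7H19orf53_1 (0.34, a numbered copy whose value is uncertain), against a median over features of 1.35. For JAG1 they were PRCP (0.26), SIAH2 (0.30) and SIAT7B (0.30), and NOTCH2 was in place 8 (0.32). For NOTCH1 they were ZNF428 (0.26), SLC22A17 (0.28) and VPREB (0.28), and DLL4 was in place 35 (0.38). JAG1 was in place 234 for HES1 (0.61).

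Markers of other cells that use Notch were read beside DLL4 and NOTCH3. The 12 endothelial markers, all matched, summed to 9.32 to 20.6 RPKM in cyclic and 9.25 to 21.0 RPKM in pregnant libraries. The sums were highest in cyclic library 4 (20.6) and pregnant library 4 (21.0), which were also the highest for DLL4. Within each group, library 4 also had the highest mural and muscle sum (81.6 and 58.6 RPKM) and secretory sum (12265 and 4581 RPKM). NOTCH2, JAG1 and HES1 were highest there as well. Most of the endothelial sum came from KDR, a receptor for VEGF, at 0.8 to 10.4 RPKM, and EMCN, a surface glycoprotein, at 1.37 to 10.8 RPKM over the libraries. Their log2 differences went opposite ways, -0.45 for KDR and 0.87 for EMCN. VWF, TEK and PECAM1 reached 2.47, 2.29 and 2.12 RPKM, and the other 7 markers stayed under 1 RPKM in every library, among them CLDN5 and CDH5 (at most 0.03 and 0.332 RPKM). The part of endothelial cells in the DLL4 values was not tested. The 10 mural and smooth muscle markers summed to 38.6 to 81.6 RPKM in cyclic and 24.7 to 58.6 RPKM in pregnant libraries. RGS5 and ACTA2 held most of this sum, at 7.01 to 46.4 and 8.07 to 23.2 RPKM over the libraries, while the pericyte genes CSPG4 and PDGFRB reached at most 1.33 and 0.208 RPKM. In cyclic library 4, highest for the mural and muscle sum, NOTCH3 stood at 4.68 RPKM, below its cyclic median of 5.83 RPKM. The part of mural and muscle cells in the NOTCH3 values was not tested.

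Stromal markers (8 genes) summed to 35.4 to 87.9 RPKM in cyclic and 14.5 to 38.6 RPKM in pregnant libraries, and leukocyte markers (11 genes) to 27.4 to 37.8 and 25.7 to 35.3 RPKM. No gene of these lists was at 0 in all libraries. The secretory markers summed to 8405 ± 2475 RPKM in the cyclic group against 3279 ± 1199 RPKM in the pregnant group. Like HES1 and JAG1, they had a lower mean in pregnant heifers and were highest in cyclic library 4 (12265 RPKM). Neither trait was particular to them. The ciliated, mural and muscle, stromal and leukocyte sums also had lower means in pregnant heifers, and the endothelial sum a higher one. These sums lean on a few genes. Of the tested leukocyte markers 5 were higher and 4 lower (median log2 difference 0.20), while CD14 averaged 4.53 and 1.42 RPKM. Of the tested stromal markers 5 were lower and 1 higher (median -0.34), and FBLN1 was the largest (means 27.8 and 9.2 RPKM). The ciliated and the mural and muscle sums were also highest in cyclic library 4 (1123 and 81.6 RPKM). The stromal and leukocyte sums were highest in other cyclic libraries, and the endothelial sum in pregnant library 4. Most of the secretory sum was OVGP1, the oviductal glycoprotein (means 5760 and 2050 RPKM), and CLU (1651 and 500 RPKM). The lineage factors PAX8 (87.5 and 88.1 RPKM) and SOX17 (22 and 21.7 RPKM) had log2 differences of 0.02 and 0.04, and EPCAM, of epithelial cells at large, -0.14. MUC1, MSLN, KRT8, CDH1 and KRT18 had log2 differences of -1.78, -1.08, -0.73, -0.63 and -0.44. Of the 10 secretory markers 8 were thus lower and 2 higher in pregnant heifers, and none passed. The part of the secretory and stromal shares in the HES1 and JAG1 values was not tested.

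The rest of the pathway was read from lists of genes by role. Of 67 tested genes in the other Notch lists, none passed (limma-trend, smallest adjusted p = 0.0934), and 43 were lower and 24 higher by mean log2 difference, with a median of -0.14. At an unadjusted p under 0.05 there were 15 lower and 7 higher, beside 11.9% and 15.7% of all tested features.

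In the list of receptor glycosylation and cleavage, 13 of 14 genes were tested, of which 9 were lower and 4 higher (median -0.14), and 4 and 1 of them had an unadjusted p under 0.05, beside 11.9% and 15.7% of all tested features. APH1A, a gamma-secretase subunit, averaged 21.9 ± 5.25 RPKM in the cyclic group against 14.4 ± 2.41 RPKM in the pregnant group (log2 difference -0.56). NCSTN, or nicastrin, another gamma-secretase subunit, averaged 28.1 ± 6.20 against 20.4 ± 3.40 RPKM (-0.43). FURIN, the protease that cuts Notch on its way to the cell surface, averaged 15.4 ± 7.14 against 7.81 ± 1.26 RPKM (-0.77). Their cyclic values overlapped the pregnant values, and adjusted p was 0.0986, 0.139 and 0.131 (limma-trend).

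In the list of ligand endocytosis and receptor turnover, 17 of 18 genes were tested, of which 9 were lower and 8 higher (median -0.08). ITCH, a ubiquitin ligase that marks Notch for degradation, averaged 20.6 ± 3.37 RPKM in the cyclic group against 27.4 ± 3.27 RPKM in the pregnant group (log2 difference 0.40). NUMBL, of the Numb family of Notch inhibitors, averaged 3.27 ± 0.940 against 2.02 ± 0.430 RPKM (-0.48), and DNM2, a dynamin of endocytosis, 32.3 ± 6.51 against 23.3 ± 3.83 RPKM (-0.44). Adjusted p was 0.108, 0.117 and 0.121 (limma-trend).

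In the list of nuclear cofactors, 23 of 24 genes were tested, of which 15 were lower and 8 higher (median -0.12). TLE3, a Groucho-type corepressor that HES proteins recruit, averaged 16.5 ± 3.98 RPKM in the cyclic group against 9.10 ± 0.985 RPKM in the pregnant group, with every pregnant library below every cyclic one (log2 difference -0.77, SE 0.16). Of the 67 genes it was the 1 lower without overlap, beside 2.05% of all tested features, and its adjusted p of 0.0934 (limma-trend) missed the threshold. CIR1, a corepressor that binds RBPJ, averaged 24.2 ± 7.36 against 35.4 ± 3.84 RPKM (0.58), and SNW1, a nuclear cofactor of RBPJ also known as SKIP, 63.9 ± 9.73 against 80.4 ± 4.28 RPKM (0.34). Adjusted p of CIR1 and SNW1 was 0.114 and 0.111 (limma-trend).

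In the list of other targets, 11 of 15 genes were tested, of which 9 were lower and 2 higher (median -0.32). MYC, a growth regulator with many inputs besides Notch, averaged 5.84 ± 1.52 RPKM in the cyclic group against 2.61 ± 1.72 RPKM in the pregnant group (log2 difference -1.0). CDKN1A, an inhibitor of the cell cycle that answers to p53 as well, averaged 16.2 ± 4.51 against 10.9 ± 1.01 RPKM (-0.48), and ID2, a helix-loop-helix inhibitor, 25.6 ± 8.0 against 18.1 ± 8.02 RPKM (-0.51). Adjusted p was 0.0934, 0.120 and 0.266 (limma-trend). Of the other receptors and ligands, 3 of 8 genes were tested: MFAP2 and MFAP5, matrix proteins, had log2 differences of -0.38 and 0.41, and CNTN1, a contactin, 0.11 (adjusted p = 0.191, 0.690 and 0.757, limma-trend).

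Regulators of multiciliation, the fate that Notch is known to restrain, were read from a list of 15 genes, of which 14 were tested. Of these, 9 were lower and 5 higher in pregnant heifers (median log2 difference -0.17), where 49.1% of all tested features were lower, and none passed. At an unadjusted p under 0.05 (limma-trend) there were 3 lower and 1 higher, beside 11.9% and 15.7% of all tested features. FOXJ1, which switches on the genes of motile cilia, had a mean of 113 ± 31.1 RPKM in the cyclic group against 61.4 ± 11.1 RPKM in the pregnant group (-0.83). CCNO, needed to amplify centrioles, averaged 5.19 ± 1.72 against 2.67 ± 2.16 RPKM (-0.88), and TP73, an upstream transcription factor, 17.0 ± 2.81 against 13.6 ± 0.501 RPKM (-0.29). Adjusted p was 0.0934, 0.126 and 0.144 (limma-trend). FOXJ1, CCNO and TP73 are named for the smallest p of this list, of which 5 genes were higher. Like HES1 and JAG1, FOXJ1 had a lower mean in pregnant heifers without a call. Whether FOXJ1 relates to the Notch members was not tested.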

How the data were processed

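Stranded mRNA libraries were made from total RNA with oligo-dT selection, per the labels' protocols. The authors deposited normalized values for 24596 features in 10 libraries, and from their steps these values are RPKM (reads scaled to feature length and library total), although the header says expression. Low values are whole multiples of a step set by feature and library. Which aligner, counter, build and annotation were used was not given in the sources used here. Library totals, lengths and reads were recovered from these steps (whole-base lengths up to 12000, tolerance 0.02 reads plus rounding), which resolved 12786 of 12834 tested features, matched the annotated length of 12 of 13 mitochondrial genes and was tested on simulated data.

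Tests covered features whose RPKM averaged 1 or more, by limma-trend (limma 3.58.1, R 4.3.3) on log2(RPKM + 1), with group as the term, Benjamini-Hochberg adjustment over all of them and a threshold of 0.05. This log scale understates the differences of low genes. Alternatives were a pseudocount of 0.1, no filter, a mean RPKM of at least 5, array weights, median-ratio scaling, a threshold of 0.1, each library left out, cyclic library 3 and pregnant library 4 left out, and the replicate number as a block. Voom on recovered reads was added after seeing the data, as were all settings for the order of levels, the overlap and the correlations. Members and gene lists were chosen with earlier results of these data known. Named were all members, up to 3 tested genes of smallest p per other Notch list (and every gene past the test), and the 3 features most like HES1, JAG1 and NOTCH1. List genes were matched by name or by the table's description. No sequences were used here. Tables and plots used matplotlib 3.10.9, scipy 1.17.1, pandas 2.3.3, numpy 2.4.6 and Python 3.11.15.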

Additional observations from a re-analysis of the deposited data

Results flagged for a closer look

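In 2 of 20 groups of 5 values (each member in each group), 1 library lay far from the others, with a gap to its nearest neighbour above 0.71 of the group's range. NOTCH1 was 2.523 RPKM in pregnant library 4, against 0.725 to 1.24 RPKM in the other pregnant libraries (gap 0.714 of the range). JAG2 was 2.497 RPKM in cyclic library 3, against 4.79 to 5.42 RPKM in the other cyclic libraries (gap 0.786 of the range). Chance alone marks about 1 in 20 such groups. These libraries are those that lay toward the other group on the first principal component.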

How the results depend on the processing

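The count of 0 features called, and of 0 members, was the same with a pseudocount of 0.1, no filter, a mean RPKM of at least 5 (4 members tested), median-ratio scaling and voom on recovered reads. It became 4831 features and 3 members with array weights, 3582 and 3 without cyclic library 3 and pregnant library 4, 4923 and 6 with voom and quality weights, and 1018 and 0 at a threshold of 0.1. Leaving out 1 library gave 0 to 2217 features (2217 without cyclic library 3, 56 without pregnant library 4) and no member. The sign of every member's difference held under every setting run. With the replicate block 0 features and 0 members were called. Of 5 same-numbered pairs, 1 had deviations correlated over 0.1 (0.284, the libraries numbered 4). So few pairs cannot exclude a pairing in the design.

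The 3 neighbouring levels that differed became 0 without cyclic library 3 and pregnant library 4, and 2 or 3 with 1 library left out. Fewer libraries allow fewer sign assignments, so the smallest p that the exact test can reach is larger, which by itself can lower this count. Members without overlap went from 0 to 4 without that pair, and to 0 or 1 with 1 library left out. The 4 pairs that varied together became 0 to 9 with 1 library left out (0 without cyclic library 3 or 5 or pregnant library 2, 3 or 5, and 9 without cyclic library 1) and 0 without cyclic library 3 and pregnant library 4. The cause of these changes was not tested. Their r stayed between 0.88 and 0.97 in every leave-one-out calculation. Depth limits DLL1 most, with 62 reads in cyclic library 4.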

Other observations

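Some genes of the Notch lists lay under the filter of a mean of 1 RPKM and were not tested. NRARP, a target that dampens Notch signalling, stood at 1.03, 1.28, 0.631, 0.597 and 0.925 RPKM in cyclic libraries 1 to 5 and at 0.168, 0.668, 0.512, 1.01 and 0.444 RPKM in pregnant libraries 1 to 5. SOX9, a transcription factor of progenitor cells, stood at 1.22, 0.489, 0.562, 2.28 and 0.942 RPKM in cyclic and at 0.085, 0.408, 0.347, 1.29 and 0.057 RPKM in pregnant libraries 1 to 5. For both genes pregnant library 4 was the highest of its group, as it was for NOTCH1, NOTCH2, JAG1, DLL1, DLL4 and HES1. HES5 and HES7 averaged 0.0132 and 0.233 RPKM over the 10 libraries, DLL3 0.0962 RPKM, and the non-canonical ligand DLK1 was listed at 0 in each.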
